A study of Mus musculus with 2 samples.

Results

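The genes Krt20, Lypd8, Lgals4, Anxa10, Phgr1, Muc4, Tff1, Tff2, Ctse and Agr2, all known from gastric or intestinal epithelium, were followed in single cells of mouse pancreatic tumours. They are 10 of the 32285 genes in the feature table and were picked by symbol. The choice was made with results of these data in view, because the genes had UMIs in the tumour cells of both libraries and some of them, Muc4 and Phgr1 among them, had differed most between the libraries. The levels and library ratios of the members are therefore a description and support no claim about the set.

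KPC cells, a mouse line of pancreatic ductal adenocarcinoma, were grown in the mouse pancreas as control cells (KPC-shV) or as cells with a hairpin against Zeb1 (KPC-shZEB1). For each group 1 tumour was dissociated whole and sequenced with the 10x Chromium 3' chemistry, so each library holds tumour cells together with the leukocytes, fibroblasts and vessels of the host. The study's text has these mice treated with gemcitabine, which the labels do not mention, and its methods name C57BL/6J, BABL/c and NSG mice of 1 age range without tying a strain to these 2 tumours. The cell clone is not given in the sources used here. With 1 library per group no difference could be tested, the mouse, the tumour, the library and the group cannot be told apart, and every interval is a 95% interval for counting error only.

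Normal pancreatic ducts make little of the mucosal programme of stomach and gut. Pancreatic carcinomas of the classical, better differentiated kind are known to switch it on, and its genes fall into recognisable roles. Krt20 is the keratin of the gut surface epithelium, Lgals4 is a gut lectin (galectin-4), Lypd8 is a lipid-anchored protein that keeps motile bacteria off the colon surface, and Phgr1 is a small intestinal protein rich in proline, histidine and glycine. Anxa10 is an annexin of gastric mucosa, Ctse is the aspartic protease cathepsin E of stomach surface cells and some leukocytes, and Tff1 and Tff2 are trefoil peptides secreted with gastric mucus. Muc4 is a membrane mucin, and Agr2 is a disulphide isomerase of the endoplasmic reticulum that mucin folding depends on.

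After filtering, 11394 cells were kept in the KPC-shV-labelled library and 12113 in the KPC-shZEB1-labelled library. Paired values are given in this order throughout. They held a median of 3721 and 4254 UMIs (unique molecular identifiers, each counting 1 captured RNA), and levels are UMIs scaled to 1000000 UMIs of the same cells (CPM). Zeb1 was not lower in tumour cells carrying the hairpin label, at 167 and 189 CPM, so the groups are called by their library labels. Host cells had Zeb1 too, such as granulocyte-like cells at 160 and 238 CPM and pericyte-like cells at 346 and 172 CPM. How much host RNA the tumour-cell values hold was not tested. The study measured the Zeb1 knockdown in KPC cells separately. The libraries shared 46 cell barcodes, 1 of them among tumour-like cells.

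Tumour-like cells were 1482 (13.0% of kept cells) and 1426 (11.8%), in 4 clusters built without the members. The Epcam-rich cluster (620 and 639 cells, median 27880 and 26509 UMIs) had a summed level of 6446 and 7347 CPM over the 8 tumour markers, against 394 and 556 CPM in granulocyte-like cells. A few-UMI cluster (306 and 309 cells) held a median of only 2162 and 2178 UMIs, and some of its sub-clusters were led by macrophage or fibroblast genes. A cluster led by Prg4 and Grem1 (545 and 252 cells) and a Ralyl cluster (11 and 226 cells, over 90% in 1 library) had Krt8 and Krt18, but their Epcam level, 22.4 and 31.1 CPM in the former and 33.8 and 32.3 CPM in the latter, was near the 26.5 and 36.2 CPM of granulocyte-like cells and exceeded it only in the 11 Ralyl cells of the KPC-shV-labelled library. A cluster found mostly in 1 library may mark that library and not a kind of cell. The Epcam-rich cluster also held sub-clusters found mostly in 1 library, given below.

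ZEB1 is known to bind DNA at E-boxes with the letters CAGGTG or CAGGTA, so the members' promoters are shown with those letters in capitals. Of the 10 members, 7 had 8 promoters in the RefSeq table (GRCm38.p6), and none was listed for Tff1, Tff2 or Ctse. Searching the 250 bases before the start on both strands found CAGGTG in 3 of the 8, those of Lypd8, Lgals4 and Phgr1, and in 17.2% of all 32851 promoters of the same length. CAGGTA was found in 0 of the 8 and in 10.0% of all. The 3 promoters that hold these letters, or CACCTG where they lie on the other strand, are printed, with Phgr1 at chr2:118772524-118772773 (plus strand, matches starting 212 and 126 bases before the start), Lgals4 at chr7:28833544-28833793 (plus strand, 75 bases before) and the second listed start of Lypd8 at chr11:58380396-58380645 (plus strand, 213 bases before).
Phgr1: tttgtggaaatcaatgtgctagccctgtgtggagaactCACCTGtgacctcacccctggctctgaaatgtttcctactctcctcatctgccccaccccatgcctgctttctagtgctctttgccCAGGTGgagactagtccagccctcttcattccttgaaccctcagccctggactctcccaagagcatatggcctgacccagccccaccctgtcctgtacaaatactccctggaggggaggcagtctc
Lgals4: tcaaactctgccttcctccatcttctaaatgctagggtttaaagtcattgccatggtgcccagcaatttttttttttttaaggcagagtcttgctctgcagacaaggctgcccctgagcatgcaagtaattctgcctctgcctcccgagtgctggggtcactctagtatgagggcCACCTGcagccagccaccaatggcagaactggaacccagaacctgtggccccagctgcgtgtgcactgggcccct
Lypd8: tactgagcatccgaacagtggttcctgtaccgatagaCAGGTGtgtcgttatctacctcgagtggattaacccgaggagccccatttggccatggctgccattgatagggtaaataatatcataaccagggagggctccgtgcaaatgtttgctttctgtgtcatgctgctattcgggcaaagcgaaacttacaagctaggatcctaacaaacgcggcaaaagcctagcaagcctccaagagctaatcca
The other letters searched were TATAAA, found in Krt20, Anxa10 and Muc4 and in 12.4% of all promoters, and AGATAA, the letters of GATA factors, found in Krt20 and Lypd8 and in 9.99% of all. CNATAAA, the letters of CDX factors, was found in Krt20, Muc4 and Agr2 and in 9.81% of all, and in Krt20 and Muc4 it overlapped the TATAAA. Searches for TGTTTAC of FOXA factors (3.17% of all) and for CAAAGTNCA of HNF4 factors (1.19%) found them in 0 of the 8. These are matches of letters and say nothing of binding.

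Most members were highest, among the tumour-like clusters, in the Epcam-rich one. The name is that of the cluster as a whole, since Epcam differed widely among its sub-clusters, as given below. In the KPC-shV-labelled library all 10 members had their highest tumour-like level in that cluster, and in the KPC-shZEB1-labelled library 9 did, the exception being Agr2. Its level was 23.1 CPM there against 23.4 CPM in the few-UMI cluster, the latter from 26 UMIs that lay mostly in 1 cell. Set against the Prg4-Grem1 cluster with a threshold of 1.5-fold (1 CPM added, at least 30 UMIs), 10 of 10 members tested were higher in the KPC-shV-labelled library, where 12.7% of all genes tested were, and 9 of 9 in the KPC-shZEB1-labelled library, where 13.6% were. No member was lower, against 12.2% and 10.3% of all genes tested. The minimum was set on both clusters together, and some members passed it only through the Epcam-rich one, such as Tff1 (118 and 17 UMIs) and Muc4 (752 and 22 UMIs) in the KPC-shV-labelled library and Agr2 (414 and 8 UMIs) in the other, so nothing is read from these counts. In the Prg4-Grem1 and Ralyl clusters the members other than Anxa10 lay near or under their level in granulocyte-like cells, which should lack most of them and show the RNA that is free in the suspension.

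**Figure D1:**
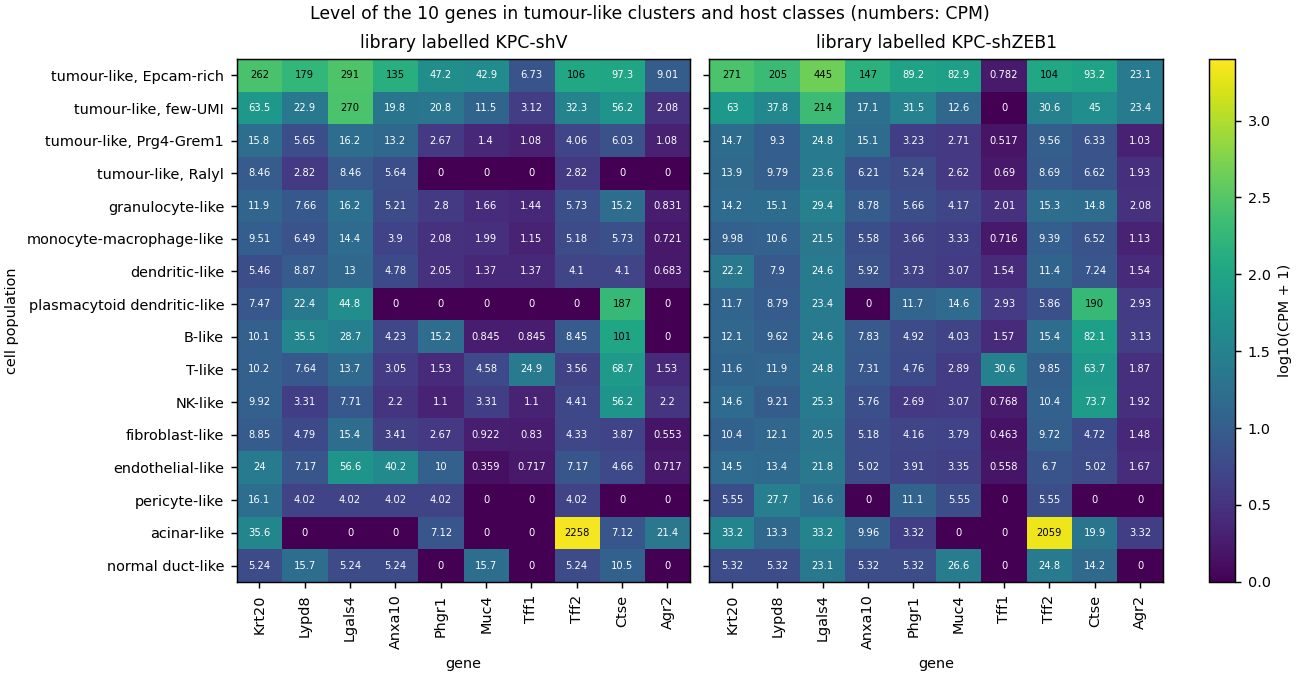
Heat map of CPM for each of the 10 genes (columns) by tumour-like cluster and host class (lines), 1 panel per library, with the CPM printed in each cell and colour for its log10 after adding 1 CPM. The Epcam-rich cluster holds the highest tumour-like levels of these genes except Agr2 in the KPC-shZEB1-labelled library, at 262 and 271 CPM for Krt20 and 291 and 445 CPM for Lgals4, and Tff2 in acinar-like cells stands highest of all at 2258 and 2059 CPM.

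Krt20 (chr11:99428403-99438150, minus strand) was at 262 CPM (255 to 270) in Epcam-rich cells of the KPC-shV-labelled library and at 271 CPM (263 to 278) in those of the KPC-shZEB1-labelled library. The intervals overlap. The few-UMI cluster came next, at 63.5 and 63.0 CPM, and the Prg4-Grem1 cluster, at 15.8 and 14.7 CPM, lay just above the 11.9 CPM of granulocyte-like cells in the former library and overlapped their 14.2 CPM in the latter. Krt20 was also the most evenly spread member, since the 1% of Epcam-rich cells with most of it held 9.86% and 8.77% of its UMIs, and 39.8% and 43.0% of these cells had at least 5 UMIs of it.

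Lgals4 (chr7:28833854-28841708, plus strand) was the most abundant member in Epcam-rich cells, at 291 CPM (283 to 299) and 445 CPM (435 to 455). The few-UMI cluster had 270 CPM (238 to 305) in the KPC-shV-labelled library, which overlaps the Epcam-rich value there, and 214 CPM (188 to 243) in the other. In the sub-cluster led by Reg3b and Rhox5, 98.5% of it few-UMI cells, 1 KPC-shV-labelled cell held 73 Lgals4 UMIs. Without that cell the level of this sub-cluster fell from 379 to 258 CPM. At least 5 UMIs of Lgals4 were counted in 31.5% and 45.1% of Epcam-rich cells. With every cell thinned to 1000 UMIs, Lgals4 was detected in 18.9% and 28.8% of Epcam-rich cells against 1.75% and 2.95% of granulocyte-like cells.

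Lypd8 (chr11:58379043-58390728, plus strand) reached 179 CPM (173 to 185) and 205 CPM (198 to 212) in the Epcam-rich cluster, yet came from few cells. The 7 cells with most of it held 57.2% and 45.6% of its UMIs there, with 456 and 306 in the richest cell, and 5.81% and 8.14% of cells had at least 5 UMIs. Lypd8 was a gene of rare and strongly loaded cells, the opposite of Krt20.

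Phgr1 (chr2:118772769-118778165, plus strand) was at 47.2 CPM (44.0 to 50.5) and 89.2 CPM (84.8 to 93.6). It had at least 5 UMIs in 6.94% and 11.7% of Epcam-rich cells, and the 7 richest cells held 36.2% and 25.1% of its UMIs. In the Prg4-Grem1 cluster it was at 2.67 and 3.23 CPM, with intervals that overlap those of granulocyte-like cells at 2.80 and 5.66 CPM.

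Among the gastric members, Anxa10 (chr8:62057042-62123150, minus strand) was at 135 CPM (129 to 140) and 147 CPM (141 to 152) in Epcam-rich cells. Its level in the Prg4-Grem1 cluster, 13.2 and 15.1 CPM, was above the 5.21 and 8.78 CPM of granulocyte-like cells, with intervals that do not overlap in either library. The 7 richest Epcam-rich cells held 35.8% and 22.3% of its UMIs.

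Ctse (chr1:131638306-131675505, plus strand) had 97.3 CPM (92.7 to 102) and 93.2 CPM (88.8 to 97.8) in Epcam-rich cells, and the few-UMI cluster had 56.2 and 45.0 CPM. It was spread over many cells, with at least 5 UMIs in 18.9% and 19.6% of them. Granulocyte-like cells held 15.2 and 14.8 CPM of it, more than the 6.03 and 6.33 CPM of the Prg4-Grem1 cluster.

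Tff2 (chr17:31141049-31144282, minus strand) was at 106 CPM (101 to 111) and 104 CPM (99.3 to 109) in Epcam-rich cells, and 1% of the cells held 38.5% and 36.7% of its UMIs. Its granulocyte-like level was 5.73 and 15.3 CPM, so the free RNA of this gene was higher in the KPC-shZEB1-labelled library. Tff1 (chr17:31161395-31165277, minus strand, overlapping Gm15318 on the plus strand) was the scarcest member, with 118 UMIs at 6.73 CPM (5.57 to 8.06) and 14 UMIs at 0.782 CPM (0.427 to 1.31) in Epcam-rich cells. In total 4 cells of the KPC-shV-labelled library held 75.4% of those 118 UMIs, and the level in the KPC-shZEB1-labelled library lay under the 2.01 CPM (1.32 to 2.92) of its granulocyte-like cells.

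Muc4 (chr16:32735886-32782391, plus strand, overlapping Muc20 on the minus strand) was at 42.9 CPM (39.9 to 46.1) and 82.9 CPM (78.7 to 87.2) in Epcam-rich cells. It was at 1.40 and 2.71 CPM in the Prg4-Grem1 cluster and 1.66 and 4.17 CPM in granulocyte-like cells. Agr2 (chr12:35992907-36004087, plus strand) was at 9.01 CPM (7.66 to 10.5) and 23.1 CPM (20.9 to 25.5), and only 4 and 12 Epcam-rich cells had at least 5 UMIs of it. The 7 richest cells held 91.1% and 75.4% of its UMIs. The few-UMI cluster of the KPC-shZEB1-labelled library had 23.4 CPM (15.3 to 34.3) of Agr2, within the interval of the Epcam-rich cluster, from 26 UMIs. In the sub-cluster led by Reg3b and Rhox5, mostly few-UMI cells, 1 cell of that library held 20 of 25 Agr2 UMIs. Without it the level there fell from 33.4 to 6.68 CPM.

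Several members had a source outside the tumour. Tff2 was highest in acinar-like cells, the enzyme-secreting cells of the exocrine pancreas, with 2258 CPM (2016 to 2520) in 16 cells and 2059 CPM (1900 to 2227) in 36 cells. It was detected in 75.0% and 69.4% of these cells after thinning to 1000 UMIs, against 5.32% and 5.95% of Epcam-rich cells. A cluster of 5 and 235 cells led by the acinar genes Pnlip, Try4 and Cela1 was left unnamed by the marker rule and held 0 and 25 UMIs of Tff2. Of the 6 acinar markers, 0 reached 2-fold above the granulocyte-like level in the Epcam-rich cluster in both libraries, though Cela1 did in the KPC-shV-labelled library (11.1 against 3.41 CPM). Their summed level there was 60.4 and 222 CPM against 72.7 and 383 CPM in granulocyte-like cells.

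Ctse was highest in plasmacytoid dendritic-like cells, at 187 CPM (121 to 276) in 15 cells and 190 CPM (147 to 243) in 40 cells. B-like cells had 101 and 82.1 CPM, T-like cells 68.7 and 63.7 CPM and NK-like cells 56.2 and 73.7 CPM. In the T-like cluster led by Lef1 the level was 98.2 and 98.7 CPM, and in that led by Ctla4 and Tox it was 55.4 and 47.2 CPM. The interval of B-like cells overlaps that of Epcam-rich cells in both libraries.

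Tff1 was higher in T-like cells than in tumour-like cells, at 24.9 and 30.6 CPM. Its UMIs came from the cluster led by Ctla4, Tox and Cd3g, where 19 of 194 and 58 of 560 cells had a UMI and the level was 36.2 CPM (26.8 to 47.9) and 44.2 CPM (38.0 to 51.3). The other T-like cluster had 0 UMIs in 95 cells, which allows a level of up to 6.04 CPM, and 3 UMIs in 388 cells. Single T-like cells held up to 10 and 15 Tff1 UMIs. Cells with Tff1 were deeper, with a median of 11518 and 9509 UMIs against 5167 and 4671 in the other T-like cells. Gata3, a factor of helper T cells, was detected in 42.1% (20.3 to 66.5) and 62.3% (49.0 to 74.4) of T-like cells with Tff1 and in 31.9% and 24.1% of those without, while Krt8 was detected in 78.9% and 78.7% against 48.9% and 52.8%. Epcam was detected in 15.8% and 34.4% against 17.0% and 18.4%, and Cd8a, of killer T cells, in 42.1% and 34.4% against 26.3% and 27.2%. The part of depth and of free tumour RNA in these shares was not tested.

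Endothelial-like cells of the KPC-shV-labelled library had 40.2 CPM of Anxa10 (33.1 to 48.3), 56.6 CPM of Lgals4 (48.2 to 66.2) and 24.0 CPM of Krt20 (18.6 to 30.5). In the KPC-shZEB1-labelled library they had 5.02, 21.8 and 14.5 CPM. Dendritic-like cells of the KPC-shZEB1-labelled library had 22.2 CPM of Krt20, and 1 cell of the cluster led by Ccl22 held 50 of that cluster's 65 UMIs. Muc4 was at 15.7 and 26.6 CPM in normal duct-like cells, from 3 UMIs in 7 cells and 15 UMIs in 27 cells.

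Between the libraries the members went different ways. Over all tumour-like cells, 4 of 10 were at least 1.5-fold higher in the KPC-shZEB1-labelled library (Lgals4, Phgr1, Muc4 and Agr2), where 6.88% of the 16330 genes tested were, and 1 of 10 was at least 1.5-fold lower (Tff1), where 1.92% were. In the Epcam-rich cluster alone the same 4 genes and the same 1 gene passed, beside 6.75% and 2.04% of 14762 genes. The median log2 ratio of the members was 0.20, against 0.03 for all genes tested. Since the members were chosen with these ratios known, nothing is read from the counts.

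Agr2 was at 5.11 and 13.6 CPM over all tumour-like cells, a ratio of 2.66 (2.23 to 3.18). Muc4 was at 22.7 and 45.3 CPM, a ratio of 1.99 (1.83 to 2.18), and Phgr1 at 25.7 and 49.8 CPM, a ratio of 1.94 (1.79 to 2.11). Lgals4 was at 163 and 252 CPM, a ratio of 1.55 (1.5 to 1.60). These 4 intervals do not reach 1.

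Lypd8 was at 93.9 and 113 CPM, a ratio of 1.21 (1.15 to 1.27). Anxa10 was at 74.8 and 82.5 CPM (1.10, 1.04 to 1.16), and Krt20 was at 142 and 151 CPM (1.06, 1.02 to 1.11). For Tff2, at 56.5 and 59.8 CPM (1.06, 0.993 to 1.13), and Ctse, at 53.6 and 53.4 CPM (0.997, 0.934 to 1.06), the interval includes 1. Tff1 went the other way, at 3.99 and 0.676 CPM (0.170, 0.104 to 0.265), on 138 and 23 UMIs of which 64.5% of the former came from 4 cells.

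The granulocyte-like level, a measure of free RNA, also differed between the libraries. It was 1.66 and 4.17 CPM for Muc4 (ratio 2.51, 1.63 to 3.89), 2.80 and 5.66 CPM for Phgr1 (2.02, 1.43 to 2.86) and 5.73 and 15.3 CPM for Tff2 (2.66, 2.13 to 3.34). For Ctse it was 15.2 and 14.8 CPM (0.976, 0.816 to 1.17). That is above the 6.03 and 6.33 CPM of the Prg4-Grem1 cluster, so for Ctse it is not read as free RNA. With the granulocyte-like level subtracted, the ratio of Muc4 was 1.95, that of Phgr1 1.93, that of Lypd8 1.14 and that of Tff2 0.876.

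**Figure D2:**
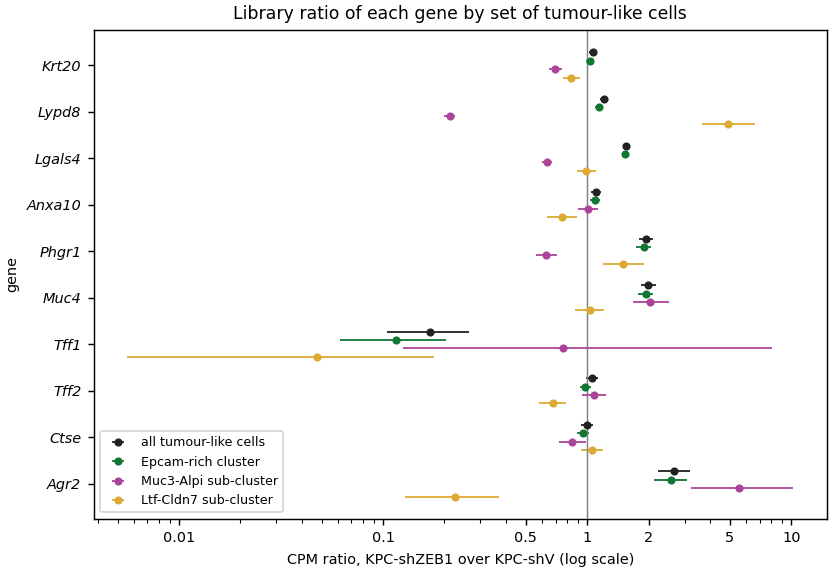
Ratio of CPM between the libraries (KPC-shZEB1 over KPC-shV, log axis) for each gene in all tumour-like cells, the Epcam-rich cluster and 2 of its sub-clusters, with exact 95% counting intervals. Muc4 is at 1.99 in all tumour-like cells, 2.04 in the Muc3-Alpi sub-cluster and 1.03 in the Ltf-Cldn7 one. Lypd8 is at 1.21, 0.212 and 4.89 in the same order. The last rests mostly on 1 cell of the KPC-shZEB1-labelled library.

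A finer clustering of the tumour-like cells, also made without the members and the listed genes, set apart 2 sub-clusters with high levels of intestinal members. The first was led by Muc3, Muc13 and Alpi, an enterocyte phosphatase, and held 52 and 192 cells. The second was led by Pyy, a gut hormone, and Cftr, the chloride channel of ducts and gut, and held 31 and 58 cells. Together they were 83 cells (5.60% of tumour-like cells, 6.33% of their UMIs) in the KPC-shV-labelled library and 250 cells (17.5%, 20.1% of UMIs) in the KPC-shZEB1-labelled library.

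These cells held 88.5% and 87.2% of all Lypd8 UMIs of tumour-like cells, 60.6% and 80.5% of Phgr1, 47.0% and 72.3% of Lgals4 and 26.0% and 58.2% of Krt20. Of Muc4 they held 18.9% and 55.6%, of Tff2 14.2% and 48.7%, and of Ctse 14.6% and 41.6%. Lypd8 UMIs thus lay almost wholly in these cells in both libraries, whereas Muc4, Tff2 and Ctse were mostly elsewhere in the KPC-shV-labelled library.

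Inside the Muc3-Alpi sub-cluster the ratio of several intestinal members had the other sign. Lypd8 was at 1647 CPM (1584 to 1711) and 350 CPM (334 to 366), a ratio of 0.212 (0.200 to 0.226), and at 1361 and 295 CPM without the richest cell of each library. Lgals4 was at 1175 and 748 CPM (0.637), Krt20 at 698 and 487 CPM (0.698) and Phgr1 at 279 and 176 CPM (0.632). The values over all tumour-like cells were higher in the KPC-shZEB1-labelled library while those inside the sub-cluster were lower, and the sub-cluster was a larger share of its tumour-like cells.

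Muc4 kept its direction there, at 71.3 and 145 CPM (2.04, 1.67 to 2.51). Its ratio was 1.03 in the Pyy-Cftr sub-cluster (0.689 to 1.57) and 1.03 in that led by Ltf and Cldn7 (0.875 to 1.21), where both intervals include 1. Inside the Muc3-Alpi sub-cluster Agr2 was at 8.75 and 48.3 CPM, the former from 14 UMIs in 1 cell. Anxa10, at 253 and 255 CPM, had an interval of the ratio from 0.899 to 1.13. Tff2 was at 172 and 185 CPM.

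In the Pyy-Cftr sub-cluster Lgals4 had its highest level of any sub-cluster with at least 30 cells, 1297 and 1439 CPM. Lypd8 was at 413 and 966 CPM there (ratio 2.34, 2.04 to 2.69), the reverse of the Muc3-Alpi sub-cluster, and 773 CPM remained in the KPC-shZEB1-labelled library without its richest cell, which held 306 UMIs. Anxa10 was at 837 and 229 CPM (0.274, 0.238 to 0.314). Tff2 was at 5.08 and 12.6 CPM, near its granulocyte-like level, so the 2 sub-clusters differed in this gastric peptide.

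Other sub-clusters had other members. The sub-cluster led by Prl2c3 and Pgf, in which the hypoxia genes Bnip3 and Ero1l were also high, had the highest Muc4 (93.3 and 186 CPM) and Ctse (166 and 148 CPM) of the sub-clusters with at least 30 cells. That led by Ltf and Cldn7 had Krt20 at 211 and 176 CPM and Lypd8 at 11.1 and 54.3 CPM, the latter mostly from 1 cell with 148 UMIs. That led by Spink4 and Gc, with 206 and 7 cells (88.7% Epcam-rich), had Tff2 at 172 CPM and Lypd8 at 7.31 CPM in the KPC-shV-labelled library. It held 50.5% of Tff2 and 29.4% of Anxa10 UMIs of tumour-like cells there. A sub-cluster led by Lsmem1 and Matn4 had 12 and 235 cells (53.4% Epcam-rich). In the KPC-shZEB1-labelled library it held 18.9% of Tff2 and 15.5% of Anxa10 UMIs. Library ratios of the Epcam-rich cluster thus also set unlike mixtures of cells side by side. The proliferating sub-cluster led by Cenpf and Mki67 (110 and 109 cells) had Lgals4 at 56.7 and 144 CPM and Lypd8 at 11.2 and 11.7 CPM. Over both libraries together, Epcam was at 76.1 CPM in the Spink4-Gc sub-cluster and 69.5 CPM in the Lsmem1-Matn4 one. It was at 939 CPM in the Ltf-Cldn7, 943 CPM in the Muc3-Alpi and 1514 CPM in the Pyy-Cftr sub-cluster. A level in the Epcam-rich cluster therefore does not always stand for cells high in Epcam.

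**Figure D3:**
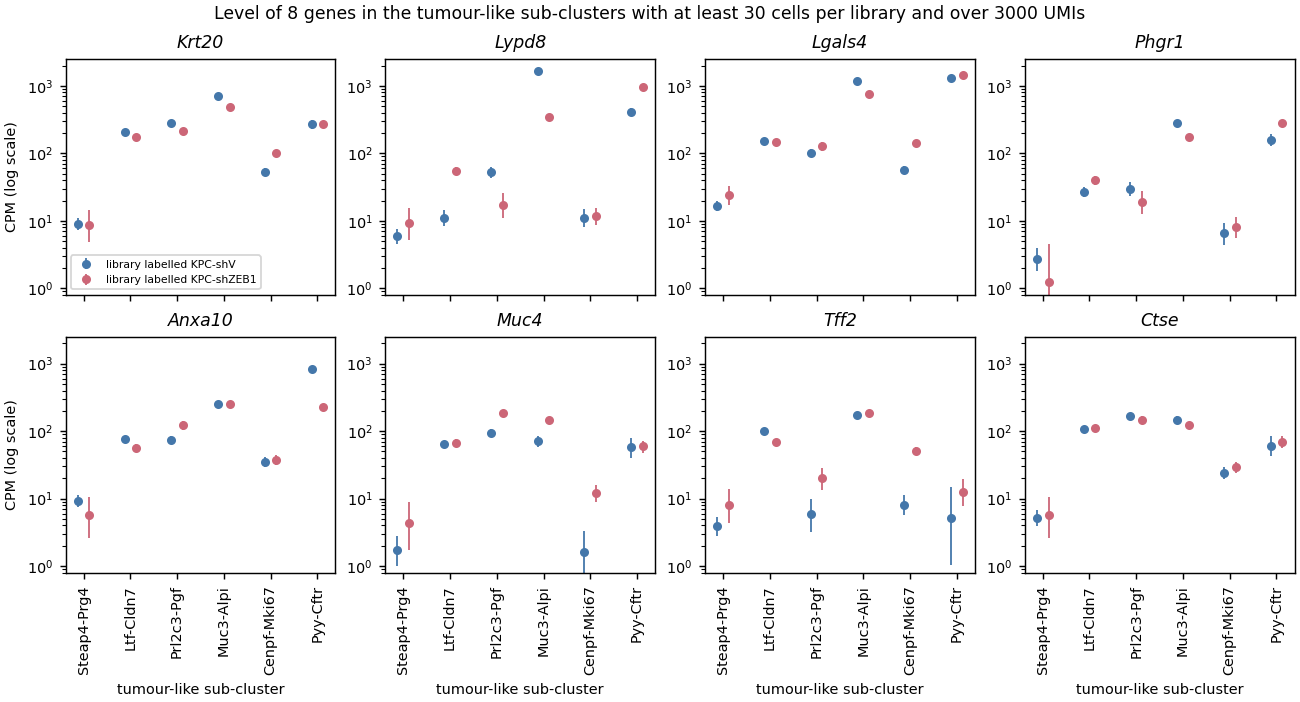
CPM of 8 of the genes (log axis) in the tumour-like sub-clusters that hold at least 30 cells per library and a median over 3000 UMIs, 1 point per library with its exact Poisson 95% interval. Lypd8 is lowest in the Steap4-Prg4 sub-cluster at 5.92 and 9.37 CPM and highest at 1647 CPM in the Muc3-Alpi one in the KPC-shV-labelled library and at 966 CPM in the Pyy-Cftr one in the other, and Muc4 peaks in the Prl2c3-Pgf sub-cluster at 93.3 and 186 CPM.

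Markers of normal ducts and of gut cell types were measured in the Epcam-rich cluster beside the members. The 5 normal duct markers had a summed level of 865 and 872 CPM against 62.1 and 69.5 CPM in granulocyte-like cells, with Slc4a4 at 543 and 526 CPM and Cftr at 13.8 and 24.1 CPM, and the part of normal duct cells in the members' levels was not tested. Gastric pit genes were near 0 except Vsig1 (17.1 and 12.8 CPM), since Gkn1, Gkn2 and Muc5ac were each under 1 CPM. Muc6, Pgc, Atp4a and Atp4b, which define neck, chief and parietal cells, were also under 1 CPM.

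Of intestinal cell types, the goblet marker Muc2 and the enterocyte genes Fabp2 and Sis were under 1 CPM. Of the 6 goblet markers 3 (Clca1, Tff3 and Spink4) had at least 30 UMIs and at least 2-fold the granulocyte-like level in both libraries. Fcgbp was also over 2-fold, at 1.65 and 15.9 CPM against 0.0437 and 1.12 CPM, but from 29 UMIs in the KPC-shV-labelled library. The 6 goblet markers summed to 87.8 and 102 CPM against 6.74 and 20.8 CPM. Most of this was Spink4, at 74.5 and 59.3 CPM. Of enterocyte genes, Vil1 was at 49.4 and 66.2 CPM, Alpi at 23.7 and 13.0 CPM and Apoa4 at 12.0 and 11.9 CPM. Of the 7 enterocyte markers, 4 (Alpi, Apoa4, Apoa1 and Vil1) had at least 30 UMIs and at least 2-fold the granulocyte-like level in both libraries.

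How many members single cells held was counted after thinning each cell to 3000 UMIs, which left 1232 and 1216 tumour-like cells and dropped 250 and 210 shallower ones. None of the 10 was detected in 57.1% (54.3 to 59.9) and 47.5% (44.6 to 50.3) of cells. At least 3 were detected in 9.74% (8.14 to 11.5) and 14.8% (12.9 to 16.9). The Epcam-rich cells were thinned again in a separate random draw, so their counts are not a part of those over all tumour-like cells. In the KPC-shZEB1-labelled library that draw gave 189 Epcam-rich cells with at least 3, and the other draw 180 tumour-like cells. In the Epcam-rich cluster 35.3% and 22.6% of cells had none and 19.4% (16.3 to 22.8) and 30.0% (26.5 to 33.8) had at least 3. Near that limit, 116 and 132 Epcam-rich cells had exactly 2 and 67 and 82 exactly 3, so it divides a range and not kinds of cell. The most in any Epcam-rich cell was 8.

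**Figure D4:**
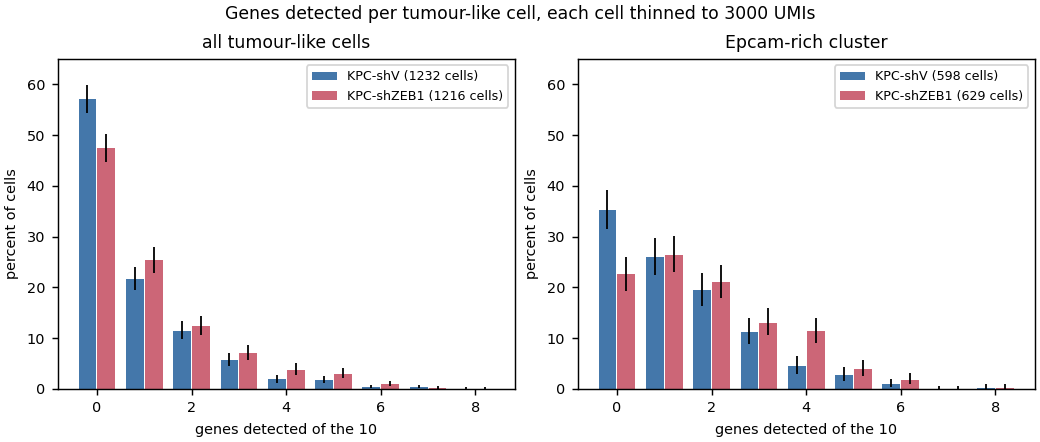
Percent of cells by the number of the 10 genes detected after thinning to 3000 UMIs, for all tumour-like cells and for the Epcam-rich cluster, with Clopper-Pearson 95% intervals. The Epcam-rich cells were thinned in a separate draw from all tumour-like cells. Epcam-rich cells with none are 35.3% and 22.6%, and beyond 1 gene the share is lower with each further gene up to 6 in both libraries.

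The strongest pairings in single cells were among intestinal members. In Epcam-rich cells Lypd8 was detected in 47.5% (31.5 to 63.9) and 51.3% (39.7 to 62.8) of cells with Phgr1 and in 4.48% and 5.63% of cells without it, 10.6 and 9.11 times as often. Phgr1 was detected in 18.8% and 24.0% of cells with Lgals4 and in 1.21% and 2.63% of those without, 15.5 and 9.14 times as often. Lypd8 with Lgals4 gave 16.7% and 19.2% against 3.16% and 4.68%.

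Lypd8 did not pair in this way with Tff2 or Ctse. It was detected in 5.80% (1.60 to 14.2) and 8.45% (3.16 to 17.5) of cells with Tff2 and in 7.56% and 11.7% of those without, with overlapping intervals. For Lypd8 with Ctse the shares were 7.02% and 8.40% against 7.44% and 12.0%. With Anxa10, a gastric member, it was detected in 17.5% (9.91 to 27.6) and 20.8% (14.1 to 29.0) against 5.79% and 8.93%, 3.02 and 2.33 times as often. Gastric genes paired with other members, since Tff2 was detected in 19.9% (14.4 to 26.4) and 17.8% (13.5 to 22.7) of cells with Lgals4 and in 7.77% and 5.85% of those without. Muc4, the membrane mucin, was detected in 20.2% (13.2 to 28.7) and 28.6% (20.7 to 37.6) of cells with Ctse and in 6.61% and 15.7% of those without.

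Over the 45 pairs, each read in 1 direction, 28 and 36 had at least 10 Epcam-rich cells with each gene. The share with the partner lay above that without it, with intervals apart, in 13 of the 28 and 16 of the 36, and in 0 pairs it lay below. The median of these ratios was 1.62 and 1.56 in the Epcam-rich cluster and 2.89 and 2.32 over all tumour-like cells, where the clusters that lack the members add cells with none.

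**Figure D5:**
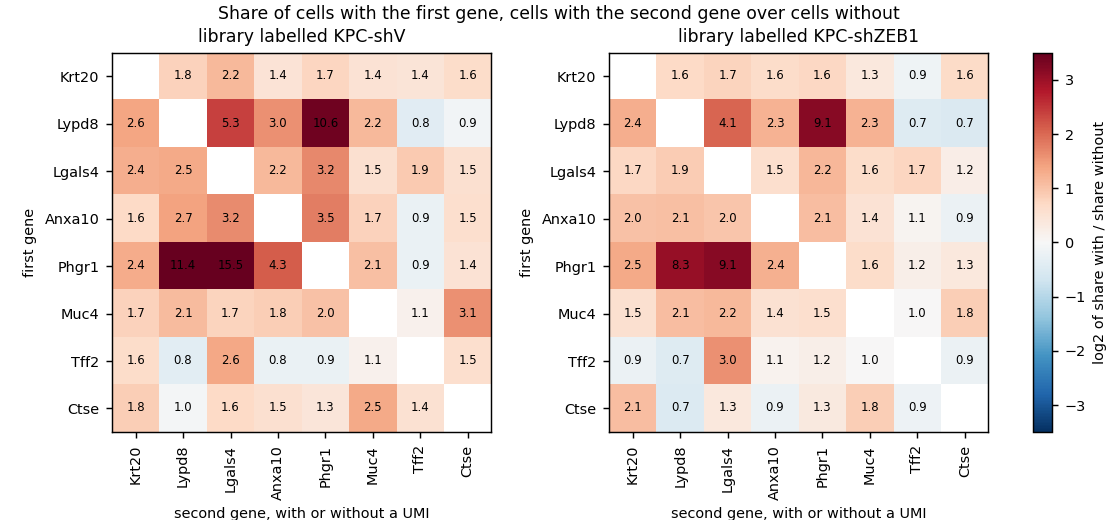
Heat map, for 8 of the genes, of the percent of Epcam-rich cells with the first gene (vertical axis) among cells with the second (horizontal axis) over that among cells without it, after thinning to 3000 UMIs, 1 panel per library, with the ratio printed and colour for its log2. Lypd8 among cells with Phgr1 is at 10.6 and 9.11, and Lypd8 among cells with Tff2 is at 0.767 and 0.725.

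Epcam-rich cells with at least 3 members (116 and 189) were set against those with 0 (211 and 142) at equal depth. All 8 members with enough UMIs were higher by construction, where 12.7% and 13.8% of all genes tested were, and none was lower, where 18.4% and 15.9% were, so nothing is read from these. Among genes that are not members, the largest differences shared by both libraries included gut genes. Some passed the UMI minimum only through the cells with at least 3 members. Muc13 had 70 against 1 UMIs and 192 against 1, and Alpi had 37 against 0 and 40 against 0. Muc13, Alpi, Muc3, Prap1 and 2210407C18Rik also lead the Muc3-Alpi sub-cluster, where several members were high. Picking cells by their members favours such genes, so nothing is read from this ranking. Muc13, a membrane mucin of the gut, was at 201 and 339 CPM against 1.58 and 2.35 CPM. Muc3, another membrane mucin, was at 195 and 157 CPM against the same 1.58 and 2.35 CPM. Alpi was at 106 and 70.5 CPM against 0 UMIs, which makes it at least 22.4-fold and 10.0-fold higher by the limit that 3 UMIs set.

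The rest of the first 10 were Prap1, 2210407C18Rik, Atp10b, Tm4sf5, Cdhr5 (a brush border protocadherin), Sprr2a3 and Ceacam1. The 10 lowest were Klhl1, Unc13c, Axl, Ccbe1, Adam12, Abcb1b, Col8a1, Pcdh9, Zfpm2 and Frmd4a. Klhl1 was at 34.5 CPM in cells with at least 3 members and at 411 CPM in cells with 0 in the KPC-shV-labelled library. It led a sub-cluster of 110 and 2 cells, with Lypd8 at 4.68 CPM, Anxa10 at 24.9 CPM, Ctse at 31.6 CPM and Krt20 at 101 CPM in its 110 cells. Axl, a receptor kinase of mesenchymal-like carcinoma cells, was at 5.75 against 83.7 CPM in the same library.

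Other gut genes outside the 10 were counted in the same cells. Of 26 measured intestinal genes, 10 were tested in cells with at least 3 members against those with 0, and 10 of 10 were at least 1.5-fold higher in each library (Vil1, Cdh17, Muc3, Muc13, Gpa33, Tspan8, Pigr, Cdhr5, Ceacam1 and Plac8). These genes had passed the minimum of 30 UMIs over both groups of cells, some only through the group in which they were high, such as Muc13 (70 and 1 UMIs) and Muc3 (68 and 1 UMIs) in the KPC-shV-labelled library, so nothing is read from this count or from those of the other lists. Of 14 other gastric genes, 2 of 2 (Muc1 and Cldn18) and 4 of 4 (also Sult1c2 and Duox2) were higher. Of 26 endodermal transcription factors, 5 of 11 were higher in the KPC-shV-labelled library, Hnf4a, Foxa1, Klf4, Klf5 and Elf3, and 2 lower, Sox9 and Pdx1. In the KPC-shZEB1-labelled library 7 of 12 were higher, Hnf4a, Hnf4g, Gata4, Klf5, Elf3, Ehf and Onecut3. Of 12 mucin and secretion genes, 1 of 4 (Galnt3) and 3 of 5 (Muc20, Galnt3 and B3gnt3) were higher.

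Between the libraries, over all tumour-like cells, 6.88% of all genes tested were at least 1.5-fold higher in the KPC-shZEB1-labelled library and 1.92% lower. Of the same lists, 3 of 18 intestinal genes tested were higher (Tff3, Pigr and Ceacam1) and 1 was lower (Fabp1, a fatty acid binding protein of enterocytes). Of gastric genes 1 of 6 was higher (Gkn3). Of 24 transcription factors, Hnf4g and Cdx2 were higher and Foxa2 and Creb3l1 lower. Of the 22 tested in the Epcam-rich cluster alone, only Hnf4g was higher and only Foxa2 lower. Over all tumour-like cells, of 10 mucin and secretion genes Muc20 and Tff3 were higher and Muc16 lower. In Epcam-rich cells Tff3, the intestinal trefoil peptide, was at 3.42 and 11.5 CPM while Tff1 was at 6.73 and 0.782 CPM, and Fabp1 was at 11.7 and 0.223 CPM.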

How the data were processed

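The authors deposited raw counts of UMIs per gene and barcode for 1 dissociated tumour per group, made with Cell Ranger 7.0.1 on mm10 per the submitters' processing notes. Whether intronic reads were counted is not given in the sources used here. The members and gene lists were chosen with earlier results of these data known. The limits of the study's methods kept barcodes of 1000 to 60000 UMIs in which 500 genes or more were detected and mitochondrial genes took no more than 15%. Scrublet scores above 0.2 removed 319 and 334 doublets. Both libraries were clustered together in scanpy 1.11.5 (3000 variable genes without 133 listed genes, 30 components, 20 neighbours, leidenalg 0.10.2, resolution 1), and tumour-like cells again with 2000 variable genes. A cluster was named where at least 3 of a list's markers were at least 2-fold higher and in over 10% of cells, and normal duct-like cells needed Cftr. This rule was set after cluster names had been seen.

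The depth was 130941086 and 143461224 UMIs in 12594 and 13271 barcodes. UMIs were summed over the cells of a class and divided by their total. Intervals are exact Poisson for CPM, exact conditional binomial for ratios and Clopper-Pearson for shares (scipy 1.17.1), and they cover counting error only. No test was run, since each group is 1 library. Cells were thinned to 1000 or 3000 UMIs without replacement where shares were compared. Genes with at least 30 UMIs over the cells compared were counted past 1.5-fold with 1 CPM added. The scripts were tested on simulated data. Gene positions are from the GENCODE annotation of GRCm38 and promoters from RefSeq.

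Named genes are the 10 members, genes of the gene and marker lists, and the 10 genes outside them with the largest difference, in each direction, between Epcam-rich cells with at least 3 members and those with 0. Leading genes of clusters, Gata3 in T-like cells, and the members named in host classes were chosen after their values were seen. Alternatives covered the cell filter, doublets, clustering, tumour cell definition, scaling, background subtraction, added CPM and thinning. A result of 1 listed gene is not reported here.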

Additional observations from a re-analysis of the deposited data

Results flagged for a closer look

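Barcodes outside the cell filter held members at different levels in the 2 libraries, and these barcodes enter no comparison above. Those with over 60000 UMIs were 289 in the KPC-shV-labelled library and 217 in the KPC-shZEB1-labelled library. Lypd8 was at 53.9 CPM in the former and 129 CPM in the latter, and Tff2 at 67.0 and 150 CPM. Anxa10 was at 86.6 and 133 CPM there, and Muc4 at 25.1 and 40.5 CPM. Among the 461 and 457 barcodes under 1000 UMIs, Tff2 was at 11.8 and 54.3 CPM, from 4 and 18 UMIs, while Anxa10, at 70.9 and 18.1 CPM, and Ctse, at 44.3 and 15.1 CPM, were higher in the KPC-shV-labelled library. The 4 genes over 60000 UMIs, and Tff2 under 1000 UMIs, are some of those with a level in the KPC-shZEB1-labelled library above that of the control library. Over 60000 UMIs this also held for Lgals4 (234 and 320 CPM) and Phgr1 (45.4 and 59.9 CPM), but not for Krt20, Tff1, Ctse and Agr2. Under 1000 UMIs it held for Lypd8, among others, at 35.5 and 75.4 CPM. Such barcodes can hold more than 1 cell or few intact ones, and what they held was not tested.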

How the results depend on the processing

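With 1 library per group the ratios carry no replicate error, free RNA and depth bound what low levels can show, and levels near those of granulocyte-like cells were not separable from background. No paired analysis was possible because each group has 1 library. The median log2 ratio of the members (0.20) was 0.43 with a looser cell filter and 0.51 and 0.12 at Leiden resolutions of 0.5 and 2. It was 0.38 with tumour cells taken by UMIs of 5 markers. Without the Ralyl cluster, mostly in 1 library, it was 0.51, and finer sub-clusters mostly in 1 library were kept. It was 0.61 without the 1% of cells with the most UMIs of each member, an alternative chosen, like the one without the few-UMI cluster, after seeing the data. At resolution 2 the ratio of Krt20 was 0.845 and that of Anxa10 0.895. Anxa10 was at 0.719 by the 5 markers and at 0.985 as a mean over cells, and Tff1 at 1.27 by the 5 markers. The direction of Krt20, Anxa10 and Tff1 thus depends on which cells are counted, as does that of Tff2 (0.811 to 1.5) and Ctse (0.906 to 1.22), and the cause was not tested. Over all alternatives Lypd8 ranged from 1.05 to 2.83, Lgals4 from 1.21 to 1.91, Phgr1 from 1.51 to 2.42, Muc4 from 1.29 to 2.49 and Agr2 from 1.16 to 3.25, always above 1. The share of tumour-like cells with at least 3 members was 12.2% and 16.9% with the looser filter, 18.2% in the KPC-shZEB1-labelled library at resolution 0.5, 4.60% and 5.16% at resolution 2 and 7.99% and 11.7% by the 5 markers. It was 19.4% and 30.0% in the Epcam-rich cluster, and in the KPC-shZEB1-labelled library it was 19.9% without the cluster mostly in 1 library and 17.6% without the few-UMI cluster. Thinning to 1000 UMIs gave 3.24% and 4.98%, to 5000 UMIs 15.5% and 22.4%, and none 35.1% and 47.9%. At least 2 members gave 21.2% and 27.2%, and at least 4 gave 4.06% and 7.81%. The median co-detection ratio was 2.96 in the KPC-shZEB1-labelled library at 1000 UMIs, 1.79 and 1.66 without thinning and 1.62 and 1.56 in Epcam-rich cells alone.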

Other observations

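Across the Epcam-rich and Prg4-Grem1 clusters, other gut genes were compared in the same way as the members. In the KPC-shV-labelled library 17 of 18 intestinal genes tested were at least 1.5-fold higher in Epcam-rich cells and Lgr5, a stem cell receptor, was lower, where 12.7% and 12.2% of all genes tested were. In the KPC-shZEB1-labelled library 15 of 16 were higher and Lgr5 was again lower, at 7.15 CPM against 37.2 CPM, where 13.6% and 10.3% of all genes tested were higher and lower. Some of these genes passed the UMI minimum only through the Epcam-rich cells, so nothing is read from the counts of higher genes. All 12 epithelial junction genes were higher in both libraries. Epcam, whose level picked the Epcam-rich cluster, is among these 12, so nothing is read from this count either. Of 9 mesenchymal genes tested, 8 and 5 were lower, with Fn1 at 1991 and 1672 CPM in Epcam-rich cells against 4093 and 4640 CPM.

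Within the Epcam-rich cluster, cells with at least 3 members had 10 of 10 and 9 of 10 epithelial junction genes at least 1.5-fold higher than cells with 0, and Fn1 and Zeb1 lower among 5 mesenchymal genes tested in each library, beside 12.7% and 13.8% of all genes tested higher and 18.4% and 15.9% lower. Zeb1 in cells with at least 3 members was 0.613 and 0.413 times that in cells with 0. Basal-like and squamous genes were 4 of 7 higher in each library (Ly6d, Areg, Krt7 and Anxa8).

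Between the libraries, over all tumour-like cells, 1 of 12 epithelial junction genes (Tjp3) and 2 of 17 basal-like genes (Ly6d and Krt14) were at least 1.5-fold higher in the KPC-shZEB1-labelled library. So were 4 of 10 mesenchymal genes (Cdh2, Snai2, Twist1 and Prrx1), while Trp63 and Snai1 were lower, beside 6.88% of all genes tested higher and 1.92% lower. These sums also hold the Ralyl cluster (11 and 226 cells) and the Prg4-Grem1 cluster (545 and 252 cells). In the Epcam-rich cluster alone 2 of 9 mesenchymal genes (Twist1 and Prrx1) were higher and Snai1 was lower. Tjp3 and 3 of 16 basal-like genes (Krt14, Cst6 and Krt17) were higher there, beside 6.75% of all genes tested higher and 2.04% lower. Tff1 had 954 UMIs at 37.1 CPM in the barcodes with over 60000 UMIs of the KPC-shV-labelled library and 49 UMIs at 2.60 CPM in those of the KPC-shZEB1-labelled library.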
